A study of Mus musculus with 8 samples.

Results

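Rab GTPase genes were compared between the cerebella of 2 inbred mouse strains, with a probe set taken as a member where its single platform gene symbol began with Rab followed by a digit. This rule took 163 of the 45137 probe sets apart from controls, 105 from the first chip of an Affymetrix mouse set (430A) and 58 from the second (430B). A probe set present on both chips is counted once on each, so the 163 are 161 distinct probe sets. They stood for 72 of the 18193 gene symbols on the chips, and 25 of the 72 were present on both. Cerebellar total RNA came from 4 male mice. Mice 48 and 51 were of the strain Inbred Long Sleep (ILS), and mice 55 and 56 were Inbred Short Sleep (ISS). All were naive to alcohol and untreated, and had been kept for 14 days with free food and water after a transfer between sites. Their age is not stated in the sources used here. The strains were derived by selection on how long mice sleep after a dose of ethanol, and the comparison asks how their cerebella differ at baseline. Each mouse was hybridised to 1 array of each type, which gave 8 arrays.

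Rab proteins are small GTPases that mark the membranes of the cell. In the GTP-bound form a Rab protein sits on a given organelle or vesicle and recruits effectors that move, tether and fuse it, and in the GDP-bound form it is taken off the membrane by GDP dissociation inhibitors. Guanine nucleotide exchange factors (GEFs) switch Rab proteins on and GTPase-activating proteins (GAPs) switch them off. In neurons the Rab3 and Rab27 proteins act on synaptic and secretory vesicles, Rab1, Rab2 and Rab6 in the endoplasmic reticulum and Golgi, Rab5 on early endosomes, Rab4, Rab11 and Rab14 in recycling, and Rab7 on late endosomes and lysosomes. The rule also takes genes that encode no Rab protein. These are 9 genes of Rab-binding proteins (Rab11fip1 to Rab11fip5, Rab3gap1, Rab3gap2, Rab3ip and Rab3il1) and 4 other symbols (Rab5if, Rab10os, Rab26os and Rab11fip4os1), and they are described apart from the GTPases.

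Values are linear signal intensities, scaled so that each array had a 2% trimmed mean of 500, and levels of different probe sets are not set against each other. Probe sets whose mean log2 intensity reached the median of their chip were tested, ILS against ISS within each chip, with limma and Benjamini-Hochberg adjustment over all tested probe sets. On 430A this median stood at a log2 intensity of 7.77, with a Rab13 probe set just inside at 7.77 and one of Rab40c just outside at 7.75. On 430B it stood at 7.85, with Rab11fip1 just inside at 7.95 and Rab1a just outside at 7.53. In all 65 of 105 members were tested on 430A and 47 of 58 on 430B, which left 61 of the 72 genes with a tested probe set. A positive log2 fold change means a higher signal in ILS, and the number of mice, 2 per strain, limits the precision.

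The tissue label was checked against cell type markers. All 9 Purkinje cell marker genes on 430A and 6 of 7 granule cell marker genes had a probe set above the array median on every array, against 3 of 8 marker genes of brainstem, midbrain and forebrain neurons and 0 of 3 of blood. Markers of several cell types differed between the strains on both chips. On 430A, of 12 tested microglial probe sets 12 had a higher mean in ILS and 4 were called, with a summed intensity of 9769 to 9805 in ILS and 6303 to 7479 in ISS, and of 14 tested Purkinje probe sets 11 had a lower mean in ILS and 2 were called, with sums of 51200 to 55840 in ILS and 58290 to 73040 in ISS. On 430B 3 Purkinje probe sets were tested, with a median log2 fold change of 0.27 and sums of 3860 to 5800 in ILS and 3639 to 5087 in ISS. There the Purkinje marker Car8 was called higher in ILS (1.51 ± 0.20 on the log2 scale, SE, limma adjusted p = 0.0137). The granule cell marker Slc17a7 (-1.14 ± 0.16, limma adjusted p = 0.0204) and the astrocyte marker Gfap (-2.37 ± 0.26, limma adjusted p = 0.00421) were called lower. Over the 5 tested probe sets of each of these 2 lists, the median log2 fold changes were only -0.087 and -0.093. Of the 5, 1 of granule cells and 2 of astrocytes had a higher mean in ILS. The summed intensities of both lists overlapped between the strains. The 2 tested microglial probe sets of 430B were not called. The 18S ribosomal RNA control, at its 3' end, stood at 537.7 and 800.9 in ILS and 147.1 and 141.9 in ISS on 430A, while the 3' to 5' ratio of the Gapdh control lay between 0.743 and 0.855 on all 4 arrays. On 430B the 18S control was also higher in ILS, at 2189 and 2585 against 545 and 712.1 in ISS. The part of these differences in the results below was not tested, and in whole tissue fewer cells of a type and less RNA per cell cannot be told apart. On 430A the ILS arrays were washed on station 2 and the ISS arrays on station 1, so that station and strain cannot be told apart there. The strains were also scanned one after the other on both chips, so scan order and strain cannot be told apart on either.

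No Rab-symbol probe set differed between the strains past the threshold of 0.05 on either chip. On 430A limma called 0 of 65 tested members, beside 2.93% of all 11313 tested probe sets (1.61% higher and 1.33% lower in ILS), with a smallest adjusted p of 0.0654 for Rab5c. On 430B it called 0 of 47, beside 0.48% of 11256 (0.195% higher and 0.284% lower), with a smallest adjusted p of 0.209 for Rab14. At an unadjusted p under 0.05 limma had 10 members on 430A (15.4%, against 21.8% of all tested probe sets) and 5 on 430B (10.6%, against 9.02%). Of the 10 on 430A, 6 were higher in ILS (10.7% of all tested probe sets were) and 4 lower (11.1%), and of the 5 on 430B, 2 were higher (4.55%) and 3 lower (4.47%). No tested member differed 2-fold, a size reached by 1.23% of all tested probe sets on 430A and 1.82% on 430B.

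The strains' values did not overlap at 28 of 65 tested members on 430A (43.1%, against 54.3% of all tested probe sets) and at 19 of 47 on 430B (40.4%, against 38.9%). With ILS above ISS there were 17 such members on 430A (25.6% of all tested probe sets lay so) and 10 on 430B (19.6%), and with ISS above ILS 11 on 430A (28.7%) and 9 on 430B (19.3%). The members' differences were centred near 0, with a median log2 fold change of -0.012 on 430A, where it was -0.011 over all tested probe sets, and of 0.051 on 430B. They ran from -0.50 to 0.73 on 430A and from -0.83 to 0.59 on 430B.

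The differences of the members were of small size. The median absolute log2 fold change was 0.13 over the members and 0.19 over all tested probe sets on 430A, and 0.12 and 0.18 on 430B. The median standard error of the members was 0.14 against 0.15 on 430A and 0.18 against 0.23 on 430B. The tested members were also brighter, with a median mean log2 intensity of 9.96 against 9.31 on 430A and 10.1 against 9.16 on 430B. All tested probe sets are therefore not a like comparison in brightness, and its part in the sizes and intervals given here was not tested. The 95% interval of the fold change lay within 2-fold in either direction for 64 of 65 members on 430A (98.5%, against 92% of all tested probe sets) and 41 of 47 on 430B (87.2%, against 79.7%). It lay within 1.5-fold for 48 members on 430A (73.8%, against 56.1%) and 27 on 430B (57.4%, against 28.7%). The lack of a call does not show that a member was equal between the strains, since differences inside its interval are not excluded.

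**Figure D1:**
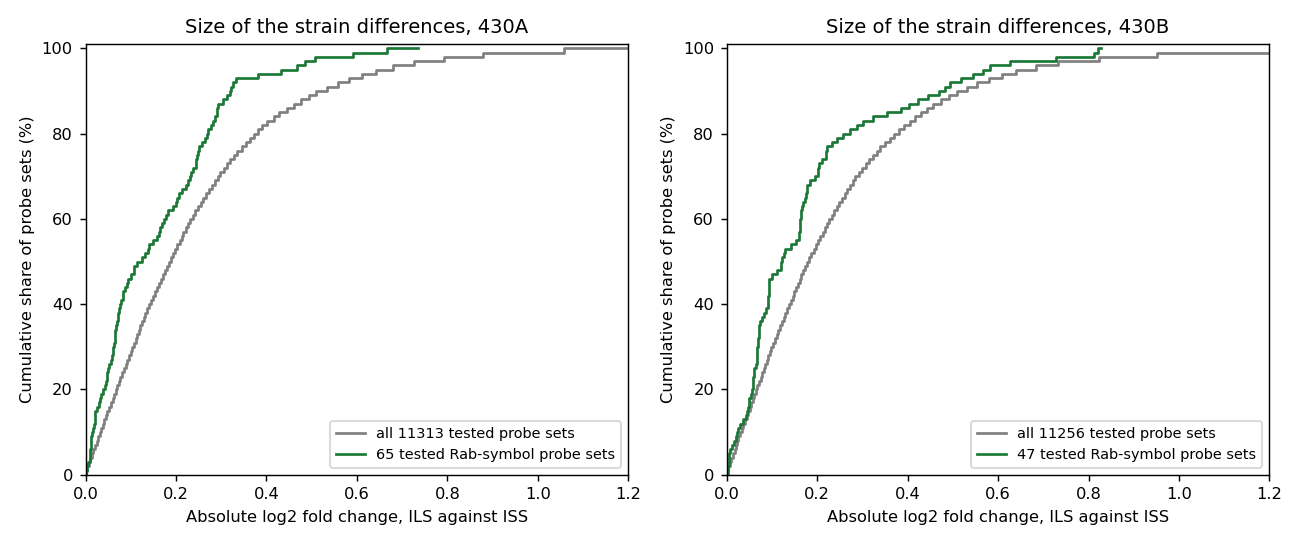
The cumulative share of probe sets in percent is plotted against the absolute log2 fold change between ILS and ISS, for all tested probe sets (grey) and the tested Rab-symbol probe sets (green), on 430A (left) and 430B (right). The green line reaches a share of 50% at 0.13 on 430A and 0.12 on 430B, before the grey line at 0.19 and 0.18.

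**Figure D2:**
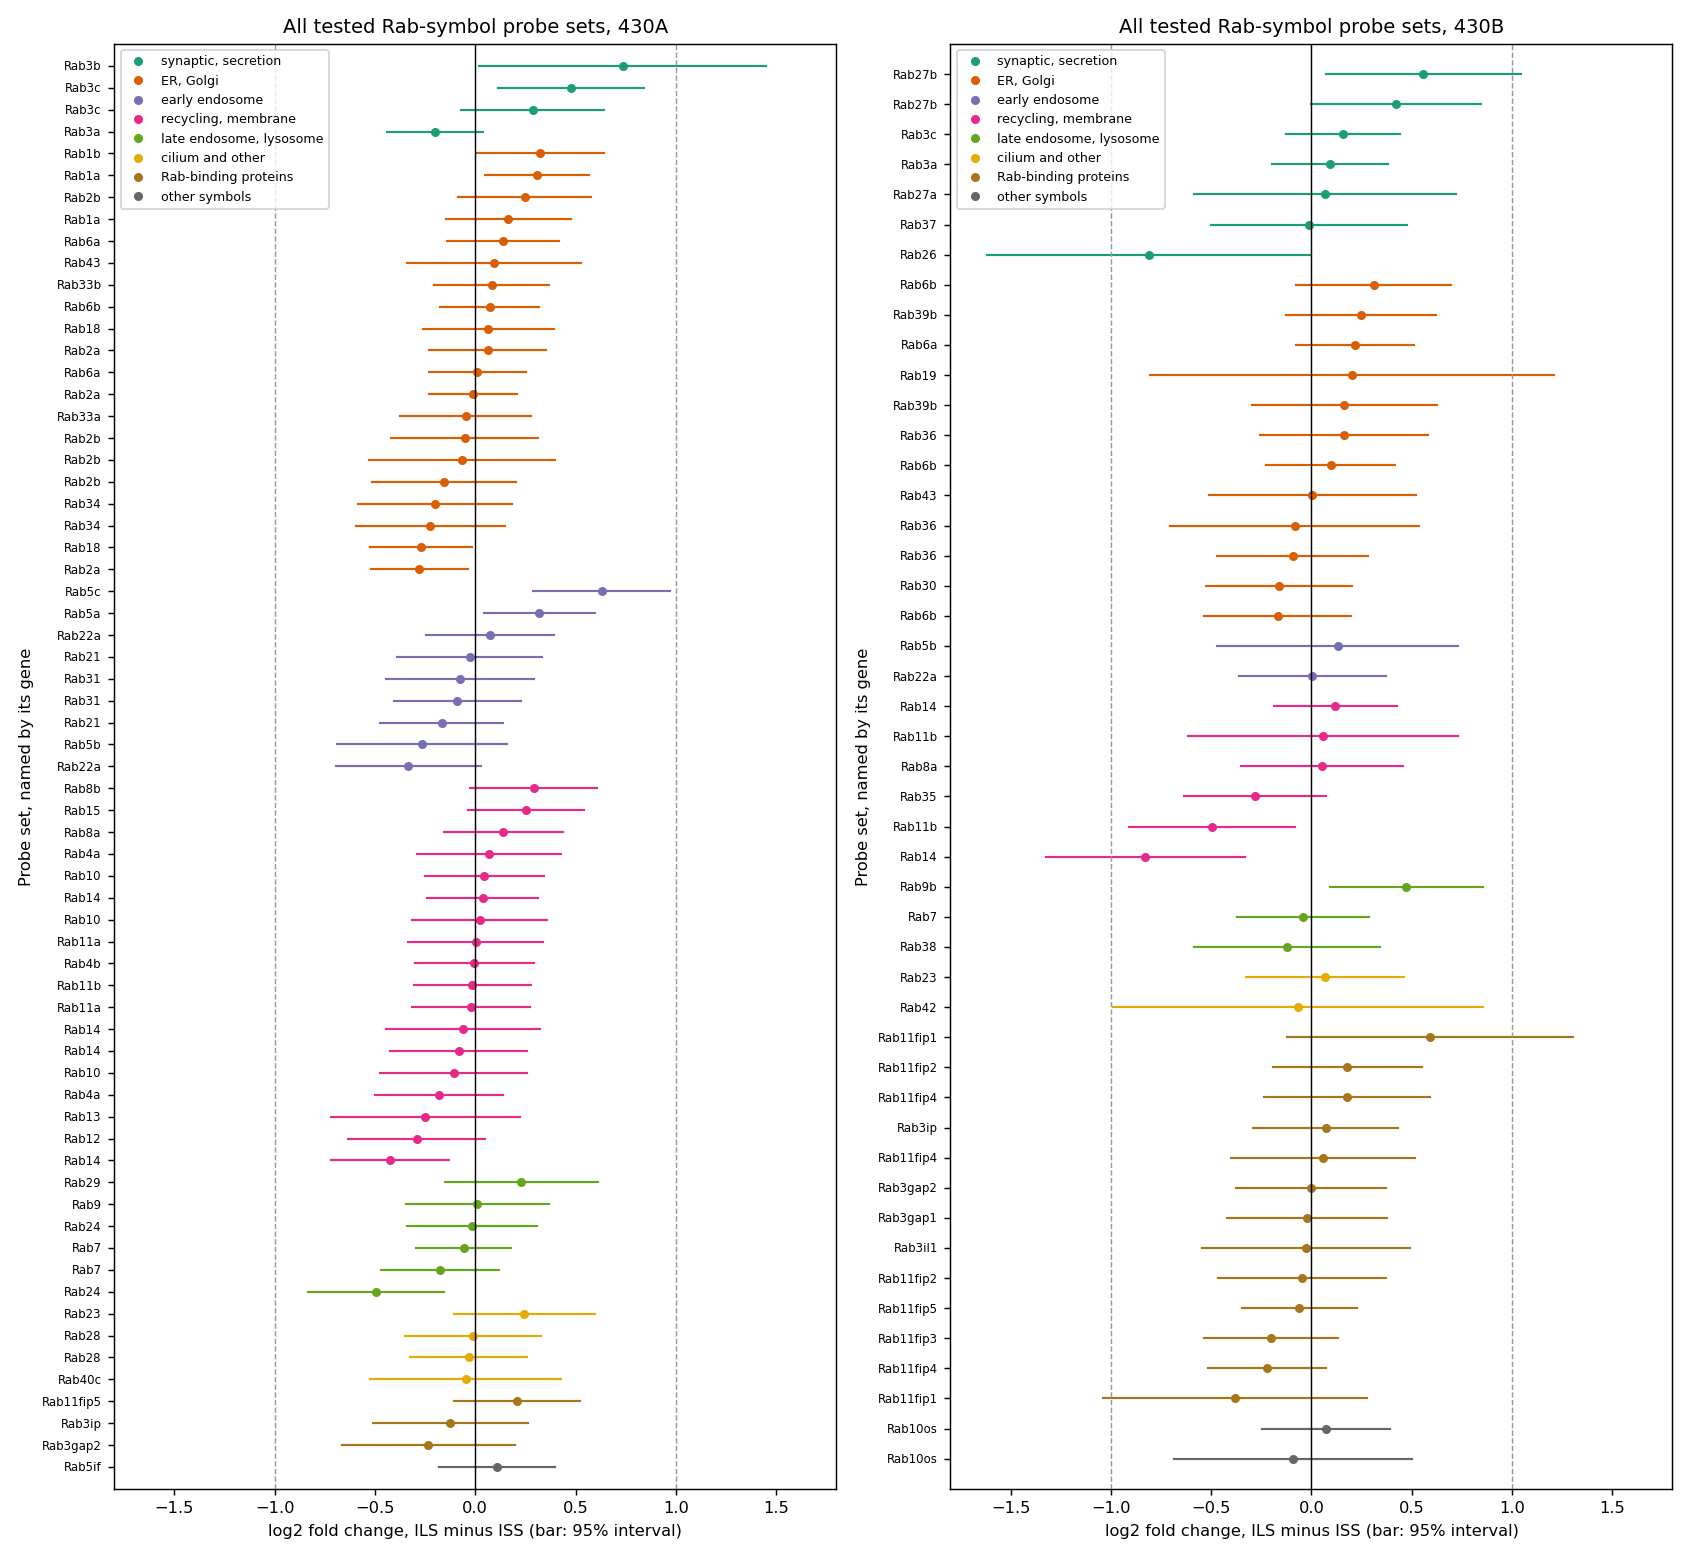
The log2 fold change of ILS minus ISS is shown with its 95% interval for each of the 65 tested members on 430A (left) and 47 on 430B (right), coloured by the role of the gene, with dashed lines at 2-fold. The points gather around 0, and 1 interval on 430A (Rab3b) and 6 on 430B cross a dashed line.

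Rab proteins of synaptic and regulated secretion had 15 probe sets on 430A, of which 4 were tested, with a median log2 fold change of 0.38, and 8 on 430B, of which 7 were tested, with a median of 0.092. None was called on either chip. Rab3a, the main Rab protein of synaptic vesicles, had intensities of 4967 and 5790 in ILS and 6294 and 6040 in ISS on 430A. Both ISS mice lay above both ILS mice, and ILS minus ISS came to -0.20 ± 0.11 on the log2 scale (SE, n = 2 per strain, limma adjusted p = 0.303). On 430B another Rab3a probe set gave a log2 fold change of 0.092 ± 0.13 (limma adjusted p = 0.895), with both ILS mice above both ISS mice. Its name has the suffix x, so part of its probes can also bind other sequences.

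Rab3c, a close relative of Rab3a on vesicles of neurons, read 403.2 and 377.5 in ILS and 289.1 and 271.3 in ISS on 430A. The strains did not overlap, at means of 390.3 ± 18.2 and 280.2 ± 12.6 (SD, n = 2), with a log2 fold change of 0.48 ± 0.16 (SE) that did not pass (limma adjusted p = 0.134). The other tested probe sets of Rab3c, 1 on each chip, pointed the same way. On 430A the value was 0.29 ± 0.16 (limma adjusted p = 0.322) and on 430B 0.16 ± 0.13 (limma adjusted p = 0.794), and neither overlapped between strains.

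Rab3b, which acts in regulated exocytosis, had intensities of 493.3 and 536.0 in ILS and 453.7 and 210.5 in ISS on 430A. The strains did not overlap, but ISS mouse 56 stood far below the other 3 mice, and ISS mouse 55 lay close to the ILS mice. On the log2 scale the difference was 0.73 ± 0.31 (SE, limma adjusted p = 0.217), with the widest interval among the members of 430A at 0.021 to 1.45. Without ISS replicate 55 the value was 1.29 and the member was called, with the lone ISS mouse assumed to vary like the ILS mice. That fit also called more of all tested probe sets than the main setting did. Without ISS replicate 56 the value was 0.18. Over the 15 alternatives the log2 fold change lay between 0.18 and 1.29.

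Rab27b, which serves the exocytosis of secretory vesicles, had both its tested probe sets on 430B. The first read 664.9 and 808.2 in ILS and 459.0 and 539.6 in ISS, and the second 1043 and 1343 in ILS and 925.2 and 844.7 in ISS. Both ILS mice lay above both ISS mice in each case, with log2 fold changes of 0.56 ± 0.22 and 0.42 ± 0.19 (SE, limma adjusted p = 0.449 and 0.559). The suffix x in the name of the first says that part of its probes can also bind other sequences. Its probe sets on 430A lay below the filter and read 135.5 and 219.5 in ILS against 168.2 and 145.5 in ISS, which overlap, and 56.59 and 41.49 against 33.29 and 30.69, which do not.

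Rab26, a Rab protein of secretory granules, stood at 231.4 and 151.4 in ILS and 389.8 and 276.8 in ISS on 430B. The ISS mice lay above the ILS mice, but mice of one strain differed widely, and the log2 fold change of -0.81 ± 0.36 (SE) did not pass (limma adjusted p = 0.551). ILS mouse 51 was under the median of its array (261.4) and ILS mouse 48 only just above its own (229.6). The ILS mean of 191.4 lay under the chip median of 230.6, so the probe set passed the filter only through ISS. Rab27a and Rab37 on 430B had log2 fold changes of 0.069 and -0.014 with overlapping strains. Rab3d, of secretory granules in gland cells, had 4 probe sets on 430A, all below the filter.

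Among Rab proteins of the endoplasmic reticulum, the Golgi and the secretory route, 20 of 27 probe sets were tested on 430A, 11 with a higher and 9 with a lower mean in ILS, at a median log2 fold change of 0.036. On 430B 12 of 14 were tested, 8 higher and 4 lower, with a median of 0.13, and none was called on either chip. Rab1a, which acts in transport from the endoplasmic reticulum to the Golgi, read 5759 and 4831 in ILS and 4332 and 4186 in ISS on 430A. Both ILS mice were the higher ones (0.31 ± 0.11, SE, limma adjusted p = 0.164), and at its second tested probe set the value was 0.16 ± 0.14 (limma adjusted p = 0.51), again without overlap. Below the filter, a Rab1a probe set on 430B read 160.8 and 139.4 in ILS and 273.6 and 192.3 in ISS. There the ISS mice were the higher ones. Rab1b, its close relative, read 1457 and 1220 in ILS and 1088 and 1043 in ISS. Its strains did not overlap either (0.32 ± 0.14, SE, limma adjusted p = 0.221).

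Rab2a, of the early secretory route, was measured by 3 tested probe sets on 430A that did not give 1 picture. One read 2877 and 2957 in ILS and 3409 and 3677 in ISS, with the ISS mice above the ILS mice (-0.28 ± 0.11, SE, limma adjusted p = 0.176). The brightest read 4993 and 5422 in ILS and 5178 and 5313 in ISS, which overlap, at -0.012 ± 0.096 (limma adjusted p = 0.957), and the third had a log2 fold change of 0.062 with overlap. Rab18, found on lipid droplets and the endoplasmic reticulum, read 2420 and 2657 in ILS and 3082 and 3032 in ISS at 1 probe set. There the ISS mice were the higher ones (-0.27 ± 0.11, SE, limma adjusted p = 0.205), while its other tested probe set overlapped at 0.065.

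The Golgi protein Rab6a had 3 tested probe sets, with log2 fold changes of 0.14 and 0.0099 on 430A and 0.22 on 430B, the last with the suffix x. Its neuronal relative Rab6b had 1 on 430A at 0.072 and 3 on 430B at 0.31, 0.095 and -0.17. The one of Rab6b at 0.31 ± 0.17 (SE, limma adjusted p = 0.665) read 1898 and 1493 in ILS and 1294 and 1426 in ISS. The strains did not overlap, and ILS mouse 48 was well above the other 3 mice. Rab39b, an X-linked gene whose human counterpart is linked to intellectual disability, had 2 probe sets on 430B at 0.25 and 0.16. The other tested members of this group, of Rab2b, Rab19, Rab30, Rab33a, Rab33b, Rab34, Rab36 and Rab43, had log2 fold changes between -0.22 and 0.25.

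Early endosome Rab proteins held the member nearest to a call on 430A. Of 11 probe sets on that chip 9 were tested, 3 with a higher and 6 with a lower mean in ILS, at a median log2 fold change of -0.076, and both probe sets on 430B were tested. Rab5c, one of the Rab5 proteins that drive fusion of early endosomes, read 497.1 and 525.6 in ILS and 346.6 and 314.7 in ISS. The strains were well apart, at means of 511.3 ± 20.1 and 330.7 ± 22.5 (SD, n = 2), a 1.55-fold difference with a log2 fold change of 0.63 ± 0.15 (SE) and a 95% interval of 0.29 to 0.97. It did not pass over all probe sets of the chip (limma adjusted p = 0.0654), nor in any of the 15 alternatives that tested it, where the adjusted p lay between 0.063 and 0.246.

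Rab5a, the best known member of the subfamily, read 2870 and 2972 in ILS and 2166 and 2526 in ISS on 430A. The ILS mice lay above the ISS mice (0.32 ± 0.12, SE, limma adjusted p = 0.174). Rab5b, in contrast, read 419.2 and 345.3 in ILS and 520.9 and 401.4 in ISS, which overlap, at -0.27 ± 0.18 (limma adjusted p = 0.434), and its probe set on 430B overlapped at 0.13. The difference between the Rab5 genes was not tested. Rab22a, a relative of Rab5 on endosomes, read 600.6 and 488.5 in ILS and 722.6 and 644.7 in ISS at 1 probe set on 430A, with the ISS mice above the ILS mice (-0.33 ± 0.16, SE, limma adjusted p = 0.259). Its other tested probe sets overlapped, at 0.073 on 430A and 0.004 on 430B. Rab21 and Rab31, also of endosomes, had 2 tested probe sets each on 430A between -0.17 and -0.028.

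Rab proteins of recycling and the plasma membrane had 18 of 24 probe sets tested on 430A, 8 with a higher and 10 with a lower mean in ILS, and a median log2 fold change of -0.0091. On 430B 6 of 8 were tested, 3 in each direction, with a median of -0.11, and none was called on either chip. Rab14, which acts between the trans-Golgi network and endosomes, had 4 tested probe sets on 430A and 2 on 430B, the most of any member gene. The one with the smallest p among the members of 430B read 435.1 and 374.4 in ILS and 669.3 and 767.1 in ISS. Both ISS mice stood above both ILS mice, at means of 718.2 ± 69.1 and 404.8 ± 42.9 (SD, n = 2), a 1.77-fold difference (-0.83 ± 0.22 on the log2 scale, SE, limma adjusted p = 0.209).

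Another Rab14 probe set is among the 100 that are present on both chips, so that the same 4 mice were measured on it a second time. On 430A it read 1232 and 1411 in ILS and 1738 and 1802 in ISS, with no overlap between the strains (-0.42 ± 0.13, SE, limma adjusted p = 0.111). On 430B it read 5248 and 4879 in ILS and 4969 and 4367 in ISS, which overlap, at 0.12 ± 0.14 (limma adjusted p = 0.868). The chips were scaled apart, so their levels are not compared. Over the 100 shared probe sets the fold changes of the chips differed by a median of 0.13 on the log2 scale, and only 2 differed by more than the 0.54 of Rab14. The remaining tested probe sets of Rab14 on 430A gave -0.062, -0.083 and 0.036, all with overlap. Below the filter on that chip, one read 249.3 and 210.6 in ILS and 140 and 121.3 in ISS. There the ILS mice were the higher ones, and another below the filter overlapped. With equal array medians the shared probe set was called on 430A at -0.58 (limma adjusted p = 0.0319, in a range of 0.0319 to 0.42 over 16 alternatives). That scaling moved the median of all tested probe sets to -0.17, and its call share rose to 10.4% of them.

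Rab11b, of the recycling endosome, read 620.1 and 644.5 in ILS and 889.7 and 895.0 in ISS at 1 probe set of 430B. The mice of each strain lay close together and the strains apart (-0.50 ± 0.18, SE, limma adjusted p = 0.426). Its probe set on 430A read 2677 and 2340 in ILS and 2709 and 2356 in ISS, where replicates differed more than strains (-0.014 ± 0.13, limma adjusted p = 0.961), and a further one on 430B overlapped at 0.059. Rab11a, its ubiquitous relative, overlapped at both tested probe sets, at 0.0013 and -0.021. Rab10, of delivery to the plasma membrane, had 3 tested probe sets on 430A between -0.11 and 0.045.

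Rab8b, which also acts in delivery to the plasma membrane, read 1030 and 1022 in ILS and 906.9 and 774.6 in ISS (0.29 ± 0.14, SE, limma adjusted p = 0.261). Rab15, a Rab protein of neuronal endosomes, read 2384 and 2432 in ILS and 1852 and 2201 in ISS (0.25 ± 0.13, SE, limma adjusted p = 0.284). In both genes the ILS mice were the higher ones. Rab12, of endosome and lysosome transport, read 898.6 and 1001 in ILS and 1050 and 1284 in ISS (-0.29 ± 0.15, SE, limma adjusted p = 0.293). Rab35, of rapid recycling, read 1544 and 1615 in ILS and 2094 and 1754 in ISS on 430B (-0.28 ± 0.16, SE, limma adjusted p = 0.668). The ISS mice were the higher ones in both of these genes. Rab4a, Rab4b and Rab8a lay between -0.18 and 0.14. Rab13 read 226.8 and 176.6 in ILS, both under the array medians, and 249.2 and 226.7 in ISS, which overlap.

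Late endosome, lysosome and related Rab proteins had 6 of 10 probe sets tested on 430A, 2 with a higher and 4 with a lower mean in ILS, with a median log2 fold change of -0.038, and 3 of 4 on 430B, with a median of -0.042. Rab24, which acts in autophagy, read 561.9 and 688.5 in ILS and 875.1 and 879.0 in ISS at 1 probe set. The ISS mice were near each other and above both ILS mice, at means of 877.0 ± 2.75 and 625.2 ± 89.6 (SD, n = 2), and the log2 fold change of -0.50 ± 0.15 (SE) was the lowest of the tested members on 430A (limma adjusted p = 0.109). Its other tested probe set read 1188 and 1065 in ILS and 1235 and 1052 in ISS, which overlap, at -0.018 ± 0.14 (limma adjusted p = 0.955). The first is marked s, a kind whose probes can match transcripts of more than 1 gene. With equal array medians it was called at -0.65 (limma adjusted p = 0.0266, in a range of 0.0266 to 0.325 over 16 alternatives), beside the shift of all probe sets to -0.17 given above.

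Rab7, the main Rab protein of late endosomes, had 3 tested measurements, 2 of them of 1 probe set shared by the chips, and none was called. Its probe set shared by the chips read 3702 and 3616 in ILS and 3977 and 3642 in ISS on 430A, which overlap, at -0.057 ± 0.10 (SE, limma adjusted p = 0.783), and -0.042 ± 0.15 on 430B (limma adjusted p = 0.967). These 2 measurements of the same mice differed by 0.015. A further probe set on 430A had the ISS mice above the ILS mice at -0.17 ± 0.13 (limma adjusted p = 0.458). Rab9b, a relative of the late endosome protein Rab9, read 1156 and 1286 in ILS and 898.8 and 858.7 in ISS on 430B. The ILS mice lay above the ISS mice (0.47 ± 0.17, SE, limma adjusted p = 0.414), while Rab9 itself overlapped on 430A at 0.0096. Rab29, whose product works with the kinase LRRK2, stood at 0.23 on 430A without overlap, and Rab38, of lysosome-related organelles, at -0.12 on 430B with overlap. That probe set of Rab38 has the suffix x.

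**Figure D3:**
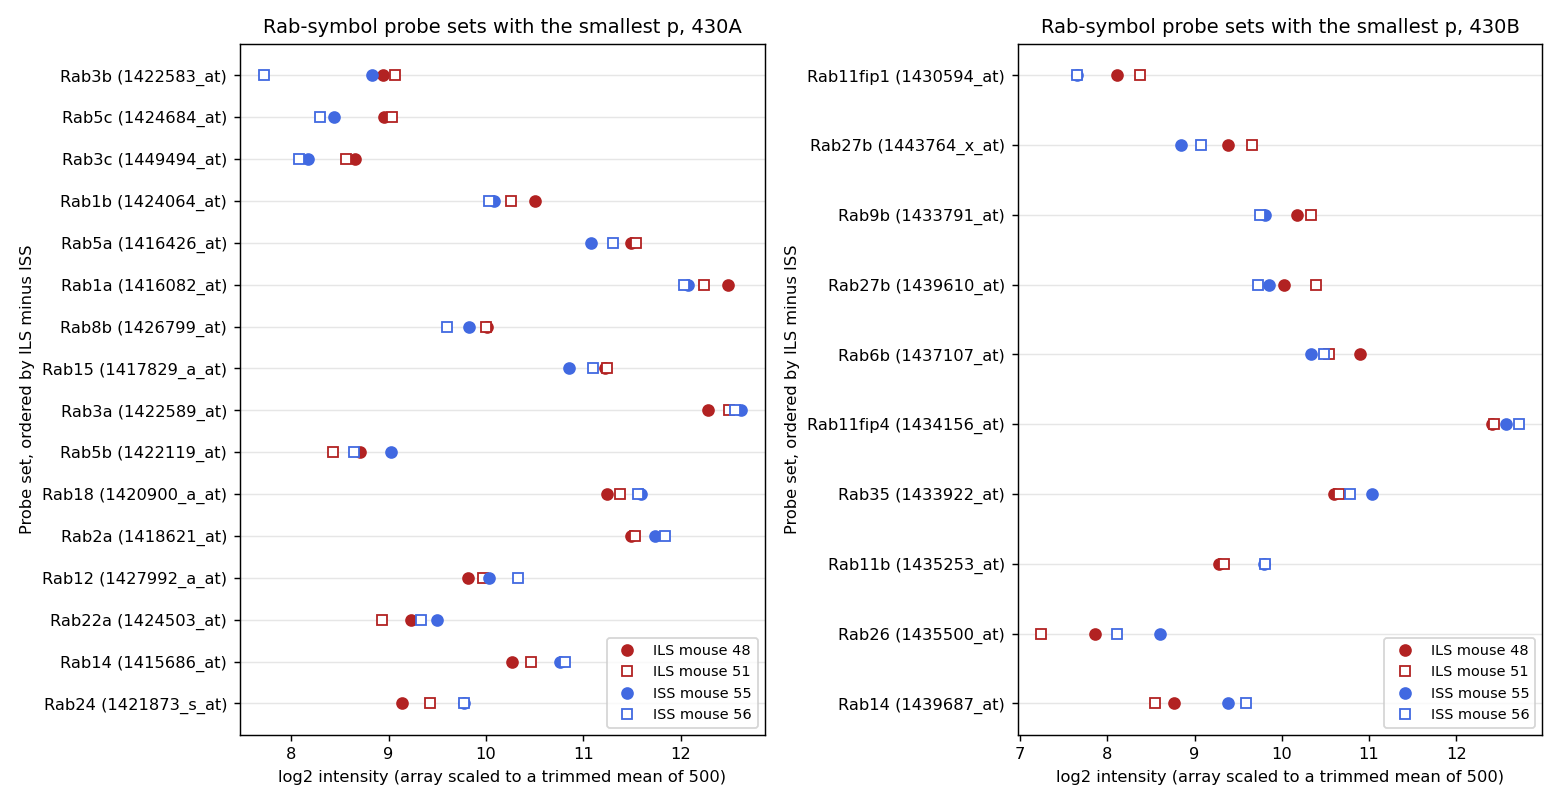
Each row is a probe set, with the log2 intensity of each mouse (ILS red, ISS blue) for the 16 members of 430A (left) and 10 of 430B (right) with the smallest p per direction, ordered by the difference of ILS minus ISS. For Rab3b, ISS mouse 56 (210.5) stands away from the other 3 mice (453.7 to 536.0), and for Rab5c the strains are apart and the mice of each strain are close.

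The remaining GTPases, of cilia and other functions, held no call either. On 430A 4 of 8 probe sets were tested, between -0.047 and 0.24, and on 430B 2 of 3, at 0.067 and -0.067. The last, of Rab42, read 262.6 and 411.4 in ILS and 520.1 and 228.1 in ISS, and its wide interval ran from -0.99 to 0.85. The highest was Rab23, which holds back Hedgehog signalling, at 420.5 and 485.4 in ILS and 376.0 and 386.6 in ISS on 430A, without overlap (0.24 ± 0.15, SE, limma adjusted p = 0.384). Its probe set on 430B overlapped at 0.067, and one on 430A below the filter read 132.6 and 146.8 in ILS and 194.4 and 211.2 in ISS, with the ISS mice above. The 2 tested probe sets of Rab28, a protein of photoreceptor cilia, overlapped at -0.033 and -0.012.

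The Rab-binding proteins with a matching symbol had 3 of 8 probe sets tested on 430A, with a median log2 fold change of -0.13, and 13 of 15 on 430B, with a median of -0.022, and none was called. Rab11fip4, an effector of Rab11, read 5429 and 5515 in ILS and 6065 and 6722 in ISS at its brightest probe set on 430B. The ISS mice were the higher ones (-0.22 ± 0.13, SE, limma adjusted p = 0.689), and 2 dimmer probe sets of the gene overlapped at 0.058 and 0.18. Rab11fip1, another effector of Rab11, read 277.2 and 330.4 in ILS and 201.0 and 201.0 in ISS at 1 probe set. The strains did not overlap, but both ISS mice were under the array medians and the probe set passed the filter only through ILS, so that the ratio of the means, at least 1.28-fold, is a lower bound. The difference did not pass (limma adjusted p = 0.645, with a 95% interval from -0.12 to 1.30 on the log2 scale), and its other probe set had the ISS mice above the ILS mice at -0.38 ± 0.29 (limma adjusted p = 0.785).

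Rab11fip5 had the ILS mice above on 430A (0.21 ± 0.14, SE, limma adjusted p = 0.405) and the ISS mice above on 430B (-0.061 ± 0.13, limma adjusted p = 0.932). Both of these probe sets are marked s. The subunits of the Rab3 GTPase-activating complex lay near 0 on 430B, with Rab3gap1 at -0.022 and Rab3gap2 at -0.0033, and Rab3gap2 at -0.23 on 430A. Rab3ip and Rab3il1, exchange factors of Rab proteins, had tested values between -0.13 and 0.071. Of the other symbols Rab5if overlapped at 0.11 on 430A, and 2 probe sets of Rab10os, named as an opposite strand transcript of Rab10, overlapped at 0.072 and -0.092 on 430B.

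Probe sets of one gene did not always keep to one direction. Of 61 genes with a tested probe set 34 had more than 1, and in 19 of these the probe sets lay on both sides of 0, while 15 kept to one side. Some of the 19 had values close to 0, as Rab11a at 0.0013 and -0.021. The same count was not made over all genes of the chips, so it is not read as a trait of the Rab genes. In Rab3c and Rab6a, each with 3 tested probe sets over both chips, the values kept to one side. Those of Rab7 did so too, but its 3 measurements include 1 probe set read on both chips. Those of Rab14 ran from -0.83 to 0.12 and those of Rab11b from -0.50 to 0.059. All these measurements share the same 4 mice.

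**Figure D4:**
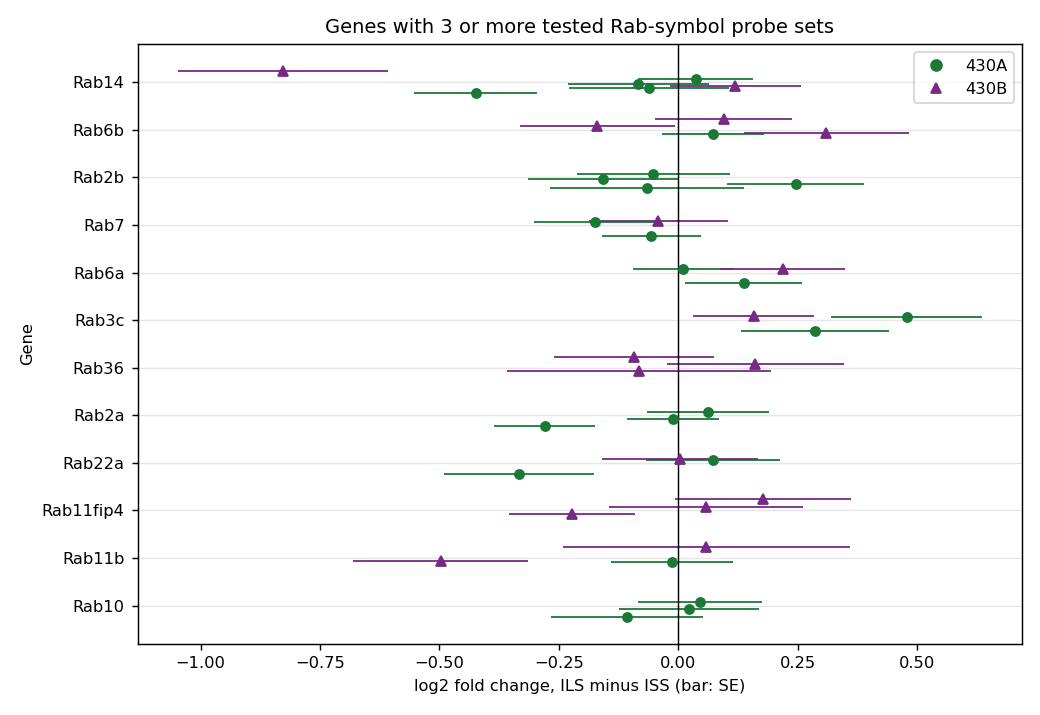
The log2 fold change of ILS minus ISS with its SE is plotted for each tested probe set of the genes with 3 or more of them, circles for 430A and triangles for 430B. The 6 measurements of Rab14 spread from -0.83 to 0.12, while the 3 of Rab3c lie between 0.16 and 0.48 and the 3 of Rab7 between -0.17 and -0.042. In Rab14 and in Rab7, 1 probe set is on both chips and is plotted for each.

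In all 51 members lay below the filter, 40 on 430A and 11 on 430B, and 11 genes had no tested probe set. These genes were Rab3d, Rab7b, Rab17, Rab20, Rab25, Rab26os, Rab32, Rab39, Rab40b, Rab44 and Rab11fip4os1. In 34 of the 40 and 10 of the 11 probe sets both strains were under the array medians with both mice, so no fold is given. Rab17 and Rab25, known from epithelial cells, were of this kind, with intensities of 51.79 and 71.48 in ILS and 13.70 and 15.20 in ISS at 1 probe set of Rab17 and of 57.99 and 48.79 against 24.69 and 23.69 for Rab25. On 430A the array medians were themselves higher in ILS, at 239.1 and 226.6 against 212.5 and 204.8 in ISS. The part of this in such dim values was not tested, and they are not read as strain differences. Without the filter limma called none of the 105 members of 430A or the 58 of 430B.

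Genes that act on or with Rab proteins but do not match the rule were counted in 4 lists, against the called shares of the chips given above (1.61% higher and 1.33% lower in ILS on 430A, 0.195% and 0.284% on 430B). Of 11 tested probe sets of the prenylation and membrane recycling machinery on 430A, 6 of them of the GDP dissociation inhibitor Gdi2, 0 were called, and of 4 on 430B 1 was called lower in ILS. Of Rab GEFs 0 of 9 were called on 430A and 0 of 26 on 430B. The counts for Rab GAPs were 1 of 17, higher in ILS, and 0 of 32, and those for Rab effectors 0 of 27 and 0 of 29. The median log2 fold changes of the lists lay between -0.12 and 0.035 on 430A, and between -0.34, over 4 probe sets, and 0.02 on 430B.

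Rabif, a protein that binds exocytic Rab proteins in their nucleotide-free form, was the call of the machinery list on 430B. It read 267.15 and 269.66 in ILS and 679.19 and 713.68 in ISS. The mice of each strain lay close together and the strains apart, 2.59-fold (-1.38 ± 0.23 on the log2 scale, SE, limma adjusted p = 0.0411). Its other tested probe sets were not called, at -0.093 ± 0.13 on 430A (limma adjusted p = 0.715) and 0.059 ± 0.23 on 430B (limma adjusted p = 0.969). The log2 fold change lay between -1.42 and -1.21 over 16 alternatives. The call ended with no filter (limma adjusted p = 0.153) and without the intensity trend (0.081). It also ended without any 1 of the 4 mice and with the station as a block. Only the array of ILS mouse 48 was on station 1 on 430B, so each of these fits rests 1 strain on 1 mouse.

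Tbc1d24, a protein with the TBC domain of Rab GAPs whose human counterpart is mutated in epilepsies, was called on 430A. It read 664.13 and 576.25 in ILS and 368.20 and 328.41 in ISS. Both ILS mice were the higher ones, 1.78-fold (0.83 ± 0.15 on the log2 scale, SE, limma adjusted p = 0.0355). On 430B its probe sets stood at 0.41 ± 0.18 without overlap and 0.21 ± 0.24 with overlap and were not called (limma adjusted p = 0.528 and 0.869). The log2 fold change lay between 0.67 and 0.93 over 15 alternatives, while the call ended without ILS replicate 48 (limma adjusted p = 0.131), without ISS replicate 56 (0.094) and with no filter (0.0659).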

How the data were processed

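The deposited tables hold linear signal intensities, which the submitters' processing notes credit to MAS5 with no version. By the values, every array had been scaled to a 2% trimmed mean of 500. The experiment files deposited by the authors are of unit other and give, per the file headers, the chip, the wash station and when each array was scanned. Detection calls and probe sequences were not used here. Gene names came from the platform annotation. Probe sets with the suffix x or s were kept as members, and not every one is marked in the text. All 163 members matched the RefSeq gene table of GRCm38.p6 by gene identifier, and 0 symbols changed. Coordinates are left out, since no build is named for the arrays.

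Arrays were rescaled to the same trimmed mean, log2 transformed and stripped of 64 control probe sets per chip. Probe sets with a mean log2 at or above the chip's median were tested with limma 3.58.1 in R 4.3.3 (lmFit, eBayes with intensity trend, 2 residual and 6.22 or 7.31 prior degrees of freedom on 430A and 430B). Tests were two-sided. Adjustment was by Benjamini-Hochberg over each chip, with calls at 0.05. The mice are separate animals. A strain was dim where both values lay below their array medians, and a fold against it is a lower bound.

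Named members were those with the smallest p per chip and direction, 8 on 430A and 5 on 430B, the brightest of each role on 430A, and called genes of the lists; other members named in the text were chosen after their values were seen. The members and lists were chosen with earlier results of these data known. The alternatives covered scaling, low intensities, the filter, the variance model, the adjustment, a 2-fold minimum, each mouse and the station. The steps were tested on simulated data.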

Additional observations from a re-analysis of the deposited data

How the results depend on the processing

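On 430A, 2 of 16 alternatives gave a called member. Equal array medians called 2, Rab14 (-0.58) and Rab24 (-0.65), or 3.08% of the tested members beside 10.4% of all tested probe sets. The other was the fit without ISS replicate 55, with Rab3b at 1.29 and only 1 ISS mouse left. On 430B none of 17 alternatives called one. The members called with 1 mouse left out ranged from 0 to 1 on 430A. Their median log2 fold change on 430A was -0.171 with equal array medians, where that of all tested probe sets was -0.169, 0.0326 with quantile and 0.0334 with cyclic loess normalization, and 0.0453 with no filter. With 1 mouse left out it ranged from -0.0233 to 0.0455. The Rab5if value turned to -0.0496 with equal array medians. Rab11b, Rab2a, Rab28 and Rab7 each had a 430A probe set near 0 whose value also crossed 0 over the alternatives. For the quantile, loess and no-filter values the cause was not tested. All tested probe sets called ranged from 115 to 1174 on 430A, the highest with equal array medians, and from 4 to 94 on 430B. The station block could not be fitted on 430A, where station and strain coincide. On 430B only the array of ILS mouse 48 was on station 1, so the block leaves ILS mouse 51 alone for its strain. It is therefore not a check of the station apart from that mouse. No paired analysis was possible because the strains share no mouse numbers.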
